A study of Mus musculus with 80 samples.

Results

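The genes described here encode proteins that hepatocytes make in bulk and release into the blood. They are 10 of the 21938 protein-coding genes with a window: Alb, Ttr, Trf, Apoa1, Apoa2, Apob, Apoc3, Apoe, Fgb and Serpina1c. They were chosen by name as secreted liver proteins, with the peak calls and fold enrichments of these livers already known, and their peaks were then taken by position. The calls are therefore given as a description. A window was the gene with 5 kb before its start and 1 kb after its end (GENCODE M21, mm10), and each ChIP-Seq peak that overlapped a window was taken. The windows did not overlap one another, and 17.2% of their bases were exonic.

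The livers came from male mice aged 5 months, labelled C57BL6/J in both genotypes and fed for 12 weeks on a control diet (Control), a control diet with pioglitazone (Pio, a drug that activates the nuclear receptor PPARγ), a high-fat diet (HFD) or a high-fat diet with pioglitazone (HFD-Pio). WT mice and liver-specific PPARγ KO mice each had these 4 groups of 5 livers, so that 40 ChIP libraries were compared. All KO mice came from a cross of PPARγ-loxP mice with mice that carry an Alb-Cre transgene, in which Cre is driven by the albumin promoter, and no WT mice with Alb-Cre alone were examined here. The antibody was against RXR, the partner with which PPARγ and several other nuclear receptors bind DNA. The labels give it for the WT and KO Control samples. In 15 KO ChIP samples, those not on the plain control diet, only the titles mention RXR, and the antibody field is filled with none. KO libraries had 0.628 to 1.06 megatags (Mtags) after removal of duplicates and WT libraries had 2.04 to 4.26 Mtags. The peak caller was run with a cutoff on p of 0.001 for WT and on q of 0.05 for KO livers. Genotype cannot be told apart from depth or from this cutoff, so WT and KO values are set side by side without a test.

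Albumin carries fatty acids and hormones and sets the osmotic pressure of plasma. Transthyretin (Ttr) carries thyroid hormone and retinol-binding protein, and transferrin (Trf) carries iron. Apob, Apoa1, Apoa2, Apoc3 and Apoe are the protein parts of lipoproteins, Fgb is a chain of fibrinogen, and Serpina1c is an α1-antitrypsin that inhibits proteases. Several apolipoprotein genes are textbook targets of nuclear receptors that bind DNA with RXR, at direct repeats of the half-site AGGTCA. Ttr and Apoe are not made by hepatocytes alone, since the choroid plexus makes transthyretin and astrocytes and macrophages make apolipoprotein E.

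Most of these genes had no RXR peak in most livers. Apoa2, Apob, Apoc3 and Fgb had no peak in any of the 40 libraries, with all 5 kb of upstream sequence included. They lie at chr1:171225054-171226379 (Apoa2), chr12:7977648-8016835 (Apob), chr9:46232933-46235636 (Apoc3) and chr3:83040141-83049863 (Fgb). Alb was called in 3 libraries, all of them WT, and Serpina1c in 2, both WT. Apoa1 was called in 4 libraries (1 WT and 3 KO) and Trf in 6 (1 WT and 5 KO). Among the genes listed, Ttr and Apoe stood apart, each with a peak in 20 of 20 KO livers and in 2 of 20 WT livers. Of all 21938 protein-coding genes, 2192 had a peak in all 20 KO livers, Ttr and Apoe among them. Only 17937 of the 21938 had a peak in any of the 40 libraries. Neither a peak in every KO liver nor the lack of any peak was therefore particular to the listed genes. In all, the windows of the listed genes held 178 peaks, 150 in KO and 28 in WT livers. These fell into 46 sites. Only 1 library had a peak at 36 of them, and 7 had one in at least 3 livers of some group. The 7 recurrent sites were 4 in Ttr and 3 in the Apoe window.

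**Figure D1:**
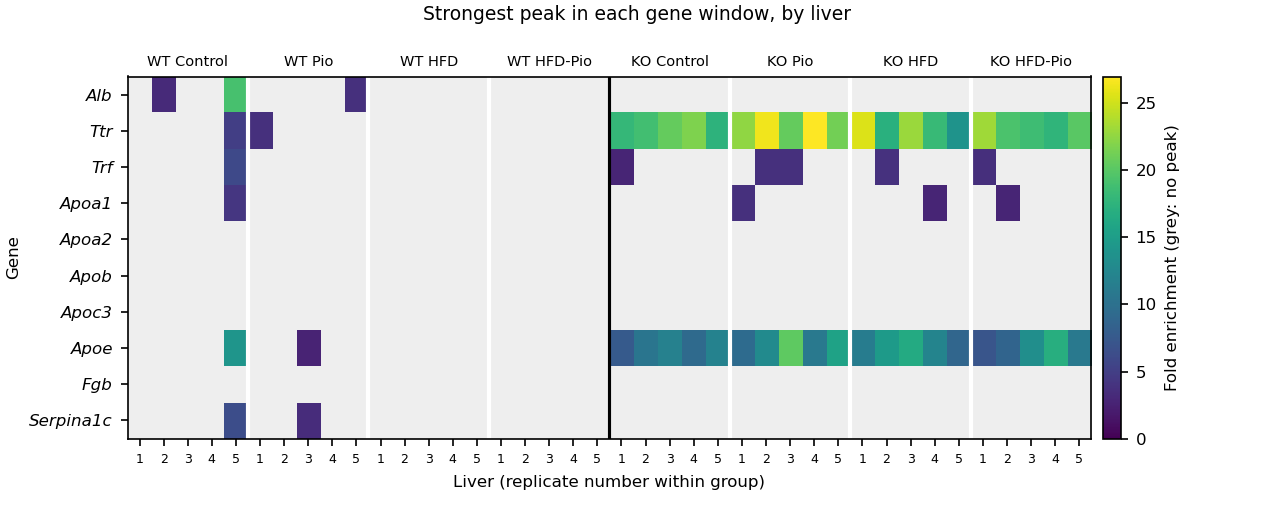
Fold enrichment of the strongest peak in each gene window (rows) in each of the 40 livers (columns, by group and replicate number); grey marks no peak. Ttr and Apoe are filled in 20 of 20 KO livers, 4 rows are empty in every library, and WT Control replicate 5 has 6 of 10 genes filled.

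Sequences are shown for 2 coding exons that drew peaks in nearly every KO liver, and for the Alb exon under the highest peak of the 1 WT library in which Alb had a strong one. They were read from RefSeq's GRCm38.p6 genome and are written 5′ to 3′ on the coding strand. In the first and the third, capitals mark the exon and lower case the intron on each side. In the second, capitals mark the bases that lay in a peak of all 20 KO livers. The 3 stretches are, in order, chr7:19697449-19697677 (minus strand), chr7:19696383-19696682 (minus strand) and chr5:90468441-90468735 (plus strand).
Apoe exon 3: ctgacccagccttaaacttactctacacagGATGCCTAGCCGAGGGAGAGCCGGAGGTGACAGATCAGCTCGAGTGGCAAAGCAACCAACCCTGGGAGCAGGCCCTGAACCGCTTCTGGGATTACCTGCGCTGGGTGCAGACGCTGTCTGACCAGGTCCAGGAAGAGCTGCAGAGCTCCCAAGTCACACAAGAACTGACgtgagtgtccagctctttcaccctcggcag
Apoe last coding bases, exon 4: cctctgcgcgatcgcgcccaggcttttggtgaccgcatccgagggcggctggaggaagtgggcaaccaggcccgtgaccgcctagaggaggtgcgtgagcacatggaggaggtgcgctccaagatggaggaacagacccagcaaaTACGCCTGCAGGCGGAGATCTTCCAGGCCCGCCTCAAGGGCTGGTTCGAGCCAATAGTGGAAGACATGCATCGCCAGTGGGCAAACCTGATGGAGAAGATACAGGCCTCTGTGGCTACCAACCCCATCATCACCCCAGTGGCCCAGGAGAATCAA
Alb exon 8: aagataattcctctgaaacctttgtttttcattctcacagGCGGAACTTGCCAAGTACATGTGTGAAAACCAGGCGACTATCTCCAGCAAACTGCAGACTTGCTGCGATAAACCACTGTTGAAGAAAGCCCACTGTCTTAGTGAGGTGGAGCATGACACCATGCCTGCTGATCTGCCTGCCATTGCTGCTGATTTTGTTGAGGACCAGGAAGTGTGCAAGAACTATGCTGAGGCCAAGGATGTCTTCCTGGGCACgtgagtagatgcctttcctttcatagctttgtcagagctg

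The 155 capital bases of the Apoe exon 4 stretch reach the last codon before the stop, and every base shown was in a peak of at least 15 KO livers. Sequence of Ttr, which lies on chromosome 18, is not shown.

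Ttr (chr18:20665280-20674321, plus strand) had peaks at each of its 4 exons in KO livers. In KO Control livers 1 to 5, the fold enrichment over input of its strongest peak was 17.9, 18.9, 20.7, 21.8 and 17.5. In KO Pio livers it was 22.5, 26.4, 20.6, 26.9 and 21.3. The KO HFD livers had 25.5, 17.2, 22.9, 18.2 and 13.9, and the KO HFD-Pio livers 23.2, 19.3, 18.6, 17.6 and 20.1. The 4 groups overlapped, with the lowest value in KO HFD and the highest in KO Pio. Among all peaks of a KO library, this peak ranked between 39 and 206 by fold enrichment, with a median rank of 85.5.

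The position of the Ttr peaks followed the exons, and their strength differed between exons. Exon 1 lay under a peak in 15 of 20 KO livers, exon 2 in 19, and exons 3 and 4 in 20 each. The mean fold enrichment was 5.81 ± 0.848 (SD, n = 15) at exon 1 and 7.01 ± 1.78 (SD, n = 19) at exon 2. It was 9.63 ± 2.52 (SD, n = 20) at exon 3 and 20.5 ± 3.43 (SD, n = 20) at exon 4, the last exon. Exon 4 was higher than exon 3 in 19 of 20 livers, exon 3 higher than exon 2 in 13 of the 19 livers with both, and exon 2 higher than exon 1 in 9 of 14. Each of the 75 KO peaks of Ttr touched an exon. The summit was in an exon for 54, and the 21 intronic summits lay 3 to 48 bp from the nearest exon, with a median of 17 bp.

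Within the Ttr exons the peaks covered most of the coding part, a smaller share of the 3′ UTR and almost none of the 5′ UTR. They covered 92.9 ± 9.50% (SD, n = 20 livers) of the 441 coding bases, and 25.5 ± 7.96% of the 586 bases of 3′ UTR. Of the 159 bases of 5′ UTR, the highest share covered in any KO liver was 0.629%, although these bases are in the same exon as the first codons. Intron bases were covered to 5.67 ± 1.63%. No KO liver had a peak in the 5 kb upstream of Ttr. In WT livers, Ttr had 1 peak in Control replicate 5 (fold enrichment 4.96) and 1 in Pio replicate 1 (3.79), both with their summit in an intron.

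**Figure D2:**
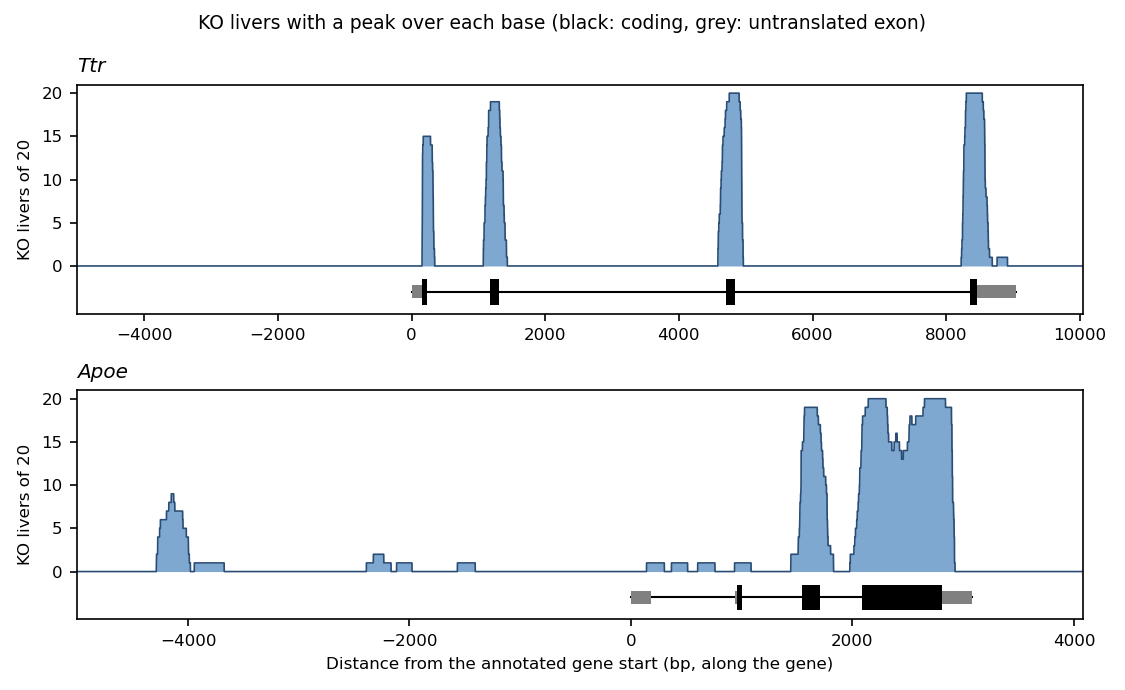
Number of the 20 KO livers with a peak over each base of the Ttr and Apoe windows, by distance from the annotated gene start in bp; the gene drawn below has coding exons in black and untranslated exons in grey. The plateaus lie over the 4 coding stretches of Ttr, with intron and 3′ UTR bases beside them, and over the last 2 exons of Apoe. The part of Ttr exon 1 before the first codon is almost empty.

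Apoe (chr7:19696109-19699188, minus strand) had its peaks over the last 2 of its 4 exons. The strongest peak had a fold enrichment of 7.67, 10.5, 11.9, 9.38 and 11.9 in KO Control livers 1 to 5. It was 9.43, 12.9, 20.3, 10.95 and 15.5 in KO Pio livers. In KO HFD livers it was 11.3, 14.7, 16.5, 12.1 and 8.93, and in KO HFD-Pio livers 7.12, 8.75, 13.3, 16.95 and 10.9. The groups overlapped here too, with the highest value in KO Pio replicate 3 and the lowest in KO HFD-Pio replicate 1. Within a library, the Ttr peak was the stronger of the pair in 20 of 20 KO livers, by a median of 1.77 times (range, 1.01 to 3.25).

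Exon 4 of Apoe lay under a peak in 20 of 20 KO livers, with a mean fold enrichment of 11.7 ± 3.65 (SD, n = 20). Exon 3 did so in 19, with 7.30 ± 2.11 (SD, n = 19), and exon 4 was the higher in 15 of the 19 livers with both. Exon 1 and exon 2, which hold the 5′ UTR and the first codons, were touched in 1 KO liver each. Peaks covered 86.0 ± 9.85% (SD, n = 20 livers) of the 933 coding bases, 36.3 ± 6.65% of the 3′ UTR and 7.19 ± 6.42% of intron bases. Of the 67 KO peaks in the window, 51 had their summit in an exon of Apoe, 2 in an intron and 14 upstream. In WT livers, Apoe was called in Control replicate 5, at exon 4 (fold enrichment 14.1) and exon 3 (7.09), and by 1 upstream peak in Pio replicate 3 (2.73).

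The 1 recurrent upstream site of any of the genes was that of Apoe, at chr7:19703167-19703474. Its median summit was at -4138 bp from the Apoe start and it overlapped an exon of Tomm40, a mitochondrial import channel gene next to Apoe. It was called in 1 KO Control, 4 KO Pio, 3 KO HFD and 1 KO HFD-Pio livers and in no WT liver, with a mean fold enrichment of 4.79 ± 1.15 (SD, n = 9). Over all libraries, 12 of the 15 peaks in the flanks of Apoe touched an exon of another gene, and so did 3 of the 3 in the flanks of Apoa1, where the other gene was Sik3. Counts for Apoe and Apoa1 with flanks included therefore contain peaks that lie on an exon of a neighbouring gene.

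The remaining KO peaks were scattered. Trf (chr9:103204001-103230444, minus strand) had 1 peak in each of 5 KO livers (Control 1, Pio 2 and 3, HFD 2 and HFD-Pio 1), with a fold enrichment of 2.81 to 3.82. They lay at 5 different places, 4 in introns and 1 upstream, and 4 of the 5 touched no exon of the gene. Apoa1 (chr9:46228580-46230466, plus strand) had 1 peak in each of 3 KO livers, at 2.803 to 3.757, all upstream, at -4927 to -4795 bp from the start. Between 43.8 and 97.6% of a library's peaks were stronger than its Trf peak, against 0.158 to 2.47% for Ttr. Alb, the gene whose promoter drives Cre in these mice, had no peak in its window in any KO liver.

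Most Alb peaks (chr5:90460897-90476602, plus strand) came from 1 WT library. WT Control replicate 5 had peaks at 6 of the 10 genes, while the other 4 WT Control livers had 0, 1, 0 and 0. In the same library, the windows of all 21938 protein-coding genes held 986 peaks, each counted once for every window it overlapped. At most 986 of these genes were therefore called. WT Control replicate 5 held 23 of the 28 WT peaks in the windows of the 10 genes, and 12 of them were in Alb. The strongest had a fold enrichment of 19.1 with its summit in exon 8, and only 1 of the 2074 peaks of that library was stronger. The peaks touched 13 of the 15 Alb exons, all but exons 1 and 5. They covered 86.1% of the coding bases, 100% of the 3′ UTR, 29.7% of the intron bases and none of the 5′ UTR. Each of the 12 touched an exon, and the 7 with an intronic summit had it 17 to 90 bp from one.

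**Figure D3:**
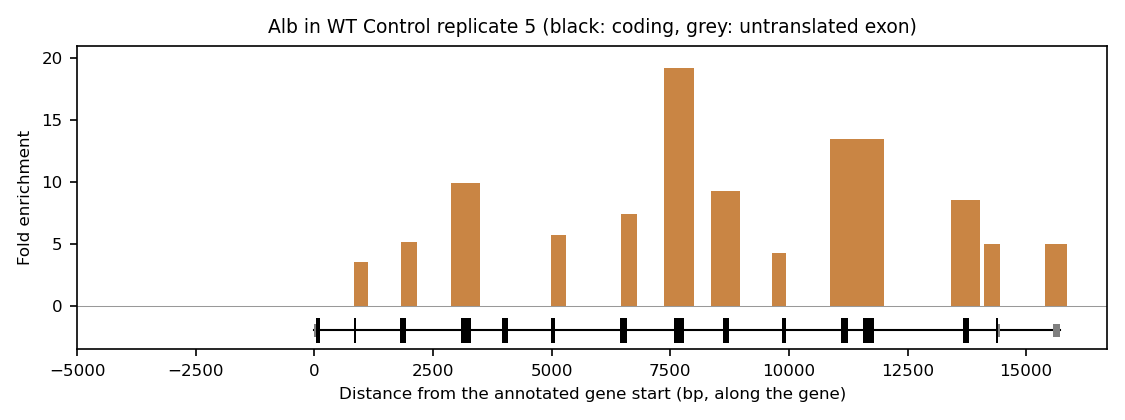
Peaks of WT Control replicate 5 over Alb, by distance from the annotated gene start in bp; bar width is the peak's extent, bar height its fold enrichment, and the gene below has coding exons in black. Each of the 12 peaks touches an exon, 7 of them with the summit in an intron. The tallest, at 19.1, is over exon 8, and there is none upstream.

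The same library had 6 peaks in Trf (fold enrichment 4.26 to 5.99), 5 of them with an exonic summit, over a stretch where the annotation also places the readthrough gene Gm20425. Its Trf peaks covered 36.1% of the coding bases and 58.7% of the 3′ UTR. The library also had 1 exonic peak in Serpina1c (chr12:103894926-103904887, minus strand, 6.38) and 1 in Apoa1 (4.27). The α1-antitrypsin genes are near-identical copies, so that the place of the Serpina1c peak among them is uncertain. Of the 23 peaks in this library, 23 touched an exon, and 14 (60.9%) had their summit in one, against 13.5% of its peaks in the windows of all protein-coding genes. The other 19 WT livers together had 5 peaks in the 10 windows, and none touched an exon. These were Alb in Control replicate 2 (3.21, upstream at -2375 bp) and Pio replicate 5 (3.75, intron), the Ttr and Apoe peaks in Pio replicates 1 and 3, and Serpina1c in Pio replicate 3 (3.45, upstream at -4037 bp). WT HFD and WT HFD-Pio livers had no peak in any of the 10 windows. With WT Control replicate 5, 14% of the pairs of gene and liver in WT Control were called, and without it 2.50%.

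Counted per group, 0 of 10 genes had a peak in at least 3 of 5 livers in each WT group. Over all protein-coding genes this share was 2.32% for WT Control and 0.542% for WT HFD, against 15.2% for WT Pio and 11.9% for WT HFD-Pio. In each KO group, 2 of 10 genes (Ttr and Apoe) met it. The share of all genes was 28.2% in KO Control, 33.4% in KO Pio, 29.7% in KO HFD and 32% in KO HFD-Pio. The count of 2 in 10 was thus not above the background of the KO livers. With an exonic summit required, the counts stayed at 0 in each WT group and at 2 in each KO group. Among all genes, this left 0.041% for WT Control, 0.0137% for WT HFD, 6.38% for WT Pio and 3.9% for WT HFD-Pio. For KO Control it left 21.1%, for KO HFD 22.8%, for KO Pio 26.1% and for KO HFD-Pio 24.2%. Where each library was cut to its 579 strongest peaks, Ttr was still called in 5 of 5 livers of each KO group, but Apoe in 1 KO Control, 3 KO Pio, 3 KO HFD and 2 KO HFD-Pio livers.

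None of the genes met the rule for a call gained with pioglitazone. A gene was counted as gained when at least 3 of 5 livers with Pio and none of 5 without had a peak. On this rule 0 of 10 genes were gained, and 0 were lost, in each of the 4 Pio contrasts. Over all protein-coding genes, 9.14% were gained in WT Pio against WT Control and 9.34% in WT HFD-Pio against WT HFD. The shares were 0.948% in KO Pio against KO Control and 0.57% in KO HFD-Pio against KO HFD. At such shares, 0 of 10 genes gained is near the background and is no result about these genes. In two-sided Fisher's exact tests on livers called, each member with a peak had an adjusted p of 1 in each Pio contrast that included it. No gene passed this test after adjustment in any Pio contrast, for which the smallest adjusted p was 0.293. With 5 livers on each side, the smallest p that Fisher's exact test can give is 0.00794. Passing after adjustment would have needed very many genes called in 5 livers on 1 side and 0 on the other, so nothing is concluded from it. Before adjustment, 1413, 765, 117 and 61 genes had a p below 0.05 in these 4 contrasts, in the order above. Ttr and Apoe were called in 5 of 5 KO livers on both sides. Neither the gained rule nor that test could therefore show a difference for them. Elsewhere in the Pio contrasts, each tested member was called in 0 to 2 of 5 livers on either side. Even 2 livers against 0 gives a p of 0.444 by Fisher's exact test, so no difference could be shown there either.

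Fold enrichment could be compared for Ttr and Apoe in KO livers, where both had a peak in all 10 livers of each contrast. No member met this in WT livers. The value compared was that of the strongest peak in the window, which was not at the same exon in every liver. Exon 4 was above exon 3 in 19 of 20 KO livers for Ttr and in 15 of 19 for Apoe. With limma on log2 fold enrichment centred on each library's median, Ttr was 0.19 ± 0.14 (SE) higher in KO Pio than in KO Control (95% interval, -0.10 to 0.47; adjusted p = 0.941). Apoe was 0.30 ± 0.19 higher (-0.09 to 0.70; adjusted p = 0.894). On HFD, the change with Pio was 0.12 ± 0.16 for Ttr (-0.21 to 0.44; adjusted p = 0.988) and -0.12 ± 0.19 for Apoe (-0.51 to 0.28; adjusted p = 0.988). Of all genes tested, 0.46% were called in KO Pio against KO Control and 0% in KO HFD-Pio against KO HFD, where 132 had an unadjusted p below 0.05. The Pio effect did not differ detectably between the diets by limma's interaction test (Ttr, -0.05 ± 0.21, adjusted p = 0.969; Apoe, -0.41 ± 0.28, adjusted p = 0.966).

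**Figure D4:**
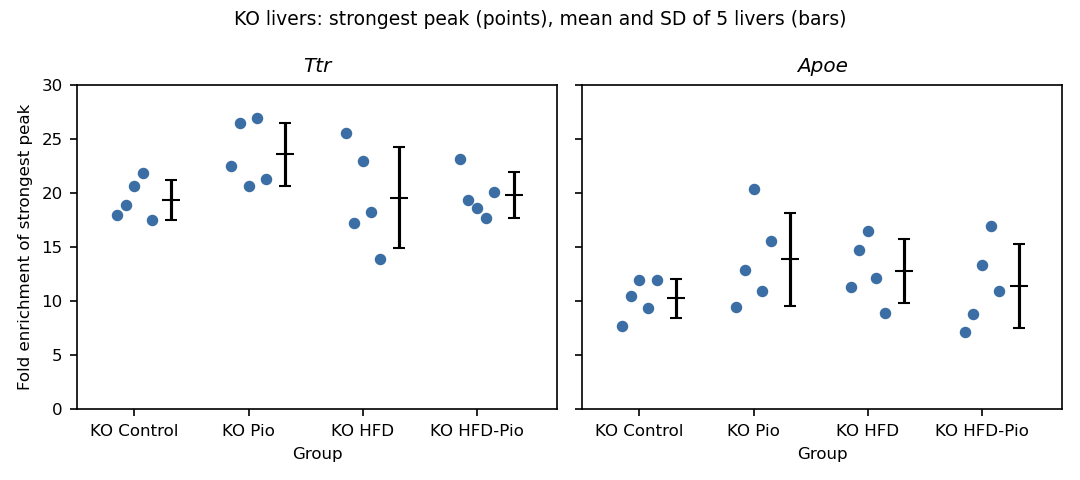
Fold enrichment of the strongest Ttr and Apoe peak in each KO liver (points), with the mean and SD of the 5 livers of each group (bars). The groups overlap for both genes; the group means run from 19.3 to 23.5 for Ttr and from 10.3 to 13.8 for Apoe.

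No diet difference of these genes passed the test either. KO HFD against KO Control differed by -0.05 ± 0.16 (SE) for Ttr (95% interval, -0.37 to 0.27; limma, adjusted p = 0.988) and by 0.26 ± 0.16 for Apoe (-0.07 to 0.58; adjusted p = 0.988). KO HFD-Pio against KO Pio differed by -0.15 ± 0.14 for Ttr (-0.44 to 0.13; adjusted p = 0.993) and by -0.20 ± 0.22 for Apoe (-0.64 to 0.25; adjusted p = 0.998). Over all genes, 0% were called in either diet contrast by limma, with 97 and 164 at an unadjusted p below 0.05. Over the Pio and diet contrasts, the 95% intervals reached from -0.64 to 0.70 on the log2 scale, so that the tests do not show that the groups were alike.

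Most peaks of the KO livers in these windows had an exonic summit. The share averaged 68.5 ± 9.14% (SD, n = 5) in KO Control, 64.5 ± 10.7% in KO Pio, 74.8 ± 7.01% in KO HFD and 75 ± 15.3% in KO HFD-Pio. The same share over the windows of all protein-coding genes was 73.0 ± 2.37% in KO Control, 73.7 ± 1.52% in KO Pio, 74.2 ± 2.42% in KO HFD and 72.2 ± 3.82% in KO HFD-Pio (SD, n = 5 each). The share at the 10 genes was above that of its own library in 1, 1, 3 and 3 of 5 livers, so that exonic summits were common over all genes of the KO libraries, not at these alone. For all genes, a peak was counted once per window and as exonic only where its summit was in an exon of that window's gene. Exons made up 17.2% of the window bases of the 10 genes and 8.07% of those of all genes. Coding exon was the position of 98 of the 150 KO summits, and none of the 98 was in a gene other than Ttr or Apoe.

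Markers of other cell types were counted in the same livers. The marker lists were written with earlier results of these data known, so their counts are a description. In KO livers, 15 of 15 neuronal markers (among them Snap25, Syt1 and Tubb3) had a peak with an exonic summit in at least 3 of 5 livers of each group, and each liver had 12 to 15 of them. Over all protein-coding genes that share was 21.1 to 26.1%. Of the 10 secreted liver protein genes, Ttr and Apoe had a peak in 20 of 20 KO livers, Trf in 5 and Apoa1 in 3, and the other 6 in none. Of 12 intestinal markers, 0 to 1 had an exonic peak per KO liver. In WT livers, 4 of 12 intestinal and 1 of 15 neuronal markers had an exonic peak in at least 3 livers of WT Pio and of WT HFD-Pio, and none in the other 2 WT groups. Among all protein-coding genes, 6.38% did so in WT Pio and 3.9% in WT HFD-Pio. The neuronal count, 6.67% of its list, was thus near the background, and the intestinal count, 33.3%, was above it. WT Control replicate 5 had 0 neuronal and 0 intestinal markers with an exonic peak, but 5 of the 10 genes described here. In that library, the windows of all 21938 protein-coding genes held 986 peaks, counted per window, and 13.5% had an exonic summit. At most 986 of all genes were therefore called there, so counts of 0 in short lists say little. No liver of WT Pio or WT HFD-Pio had an exonic peak at any of the 10 genes. What part the marker signal had in the Ttr and Apoe peaks was not tested, and ChIP peaks do not measure RNA.

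Few other secreted liver proteins were called. Of 50 further genes, 2 to 4 were called in at least 3 of 5 livers of each KO group, and 1 or 2 with an exonic summit. Over all protein-coding genes the shares were 28.2 to 33.4% and 21.1 to 26.1%, so that both counts were below the background. Igfbp2, which binds insulin-like growth factors, was called in 20 of 20 KO livers, with an exonic summit in each and a mean fold enrichment of 16.8. Apoc1 was also called in 20 of 20, but its window takes in the Apoe exon 4 peak, and none of its summits was in its own exons. In WT livers 0 to 2 of the 50 were called in at least 3 livers of a group, against 0.542 to 15.2% of all genes. Pzp, a protease inhibitor, was the 1 gene gained, in WT HFD-Pio against WT HFD (4 livers against 0), a contrast in which 9.34% of all genes were gained, and no listed gene was gained or lost in the other Pio contrasts. Only Igfbp2 and Apoc1 had a peak in every liver of a KO contrast and could be tested by limma; neither was called, and the values of Apoc1 are those of the Apoe peak. The other 48 were not tested by limma. WT Control replicate 5 had 10 of the 50 called, 7 with an exonic summit. Its peaks in the windows of all 21938 protein-coding genes were 986, counted per window, 13.5% of them with an exonic summit. No other WT liver had more than 1 of the 50 with an exonic summit.

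Over the 20 KO livers, 2192 genes had a peak in every liver. Among these, the gene with the fold enrichment nearest to that of Ttr was Fth1, the ferritin heavy chain, with a root mean square difference of 0.25 on the log2 scale. Gpm6a, a neuronal membrane glycoprotein gene, was as near, also with 0.25. The geometric means were 21.8 for Fth1 and 19.5 for Gpm6a, against 20.3 for Ttr. The nearest to Apoe was Apoc1, which shares the peak and therefore had a difference of 0. The next was Sparcl1, an extracellular matrix glycoprotein, with a difference of 0.29 and a geometric mean of 12.2 against 11.6 for Apoe.

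The half-site repeats were looked for because RXR dimers bind them. Direct repeats of AGGTCA with a spacer of 1 (DR1), 2 (DR2) or 4 bases (DR4) were searched on both strands, with up to 2 mismatches in the 12 half-site bases. Within 100 bp of the median summit, 6 of the 7 recurrent sites held none. The site at Apoe exon 3 held 1 DR1 with 2 mismatches, at chr7:19697611-19697623, inside the capitals shown above. Of 32851 RefSeq promoters (250 bases before to 50 after the start), 3.86% held a DR1, 2.99% a DR2 and 3.02% a DR4, and 9.17% held any of them. Promoters of 7 of the 10 genes were in this table. The promoters of Alb, Apoa1, Apoe, Fgb and Serpina1c held no match. That of Apoa2 held a DR1 and that of Apob a DR2, each with 2 mismatches and on the strand opposite to the gene. Both are shown with the match in capitals, because neither gene had a peak in its window in any library. They lie at chr1:171224804-171225053 and chr12:7977427-7977647, both on the plus strand.
Apoa2 promoter: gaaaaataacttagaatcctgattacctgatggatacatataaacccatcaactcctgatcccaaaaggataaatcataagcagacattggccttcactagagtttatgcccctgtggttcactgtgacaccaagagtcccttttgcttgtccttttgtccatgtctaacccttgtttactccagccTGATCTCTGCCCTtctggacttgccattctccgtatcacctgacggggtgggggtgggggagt
Apob promoter: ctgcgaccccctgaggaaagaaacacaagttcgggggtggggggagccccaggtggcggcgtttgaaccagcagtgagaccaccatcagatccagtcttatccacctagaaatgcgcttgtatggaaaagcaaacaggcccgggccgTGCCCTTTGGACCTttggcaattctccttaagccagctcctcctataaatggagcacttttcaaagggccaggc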

How the data were processed

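RXR ChIP-Seq was performed by the authors on livers of WT and KO mice, and reads were aligned with Novoalign to mm10. Per the file headers, peaks were called with MACS2 (version 2.1.1.20160309) on every ChIP library with its own input as control, at a p cutoff of 0.001 in WT and a q cutoff of 0.05 in KO livers, with 1 tag kept per position. The deposited values are the fold enrichment at the summit (a ratio to local background), the pileup (signal, in tags), -log10 p and -log10 q, and a display score. Only lists of peaks were used, with no reads per site, so that no counting interval was computed. The second deposited peak list of each library held identical peaks and was not used. The authors' comparison of read counts was not repeated.

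The 10 genes, the further gene lists and the tests were chosen with earlier results of these data known. Summit rows of 1 interval were merged, and the position was that of the strongest summit on GENCODE M21. Windows took 5 kb (5000 bp) before and 1 kb (1000 bp) after each gene. Peaks overlapping within a window were merged into sites, and a site was recurrent when at least 3 livers of a group had it. The strongest peak of a gene was compared with limma 3.58.1 (R 4.3.3; trend, Benjamini-Hochberg) over all genes with a peak in all 10 livers, and called genes with Fisher's exact test (scipy 1.17.1). Both were tested on simulated data. For Fisher's exact test that check used the unadjusted p, so it does not cover the adjusted p given here. Text names each of the 10 genes, the listed secreted genes gained, lost or called, and the nearest gene by root mean square difference. Igfbp2, Apoc1, Gpm6a, Sparcl1, Tomm40 and Sik3 were added after their values were seen, Apoc1 also under the last rule. Groups came from the labels, which describe each library as the liver of a mouse and do not say that replicates with the same number share an animal or day.

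In the check of pairing over KO livers, deviations of same-numbered livers correlated at -0.07 to 0.06, so the numbers were not taken as pairs. The alternatives were other peak cutoffs, equal list lengths, other windows, exonic peaks alone, pileup per megatag, no centring, a replicate block and leaving out each liver.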

Additional observations from a re-analysis of the deposited data

Results flagged for a closer look

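In 28 sets of 5 livers, a value that stood far from the other 4 by Dixon's criterion was found 5 times. For independent, normally distributed values, chance alone gives about 1 in 20. Several of these sets are small counts with ties, taken from the same livers, so that rate does not hold for them. WT Control replicate 5 had 6 of the 10 genes called and 23 peaks in their windows, against at most 1 of each in the other WT Control livers. This library had 2074 peaks in all, and the cause was not tested. KO Control replicate 1 had 3 genes called, the third being Trf, against 2 in each of the other 4. KO Pio replicate 1 had 10 peaks in the windows, against 8 in each of the other 4, and KO HFD-Pio replicate 4 had 5, against 8. These last 3 differ from their groups by 1 to 3 peaks or genes among tied values. The Ttr and Apoe fold enrichments gave no such value in any KO group.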

How the results depend on the processing

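The number of the 10 genes called stayed at 0 in each WT group and at 2 in each KO group under each alternative, except equal list length, where it was 1 in KO Control and 1 in KO HFD-Pio because Apoe fell below 3 livers. With each liver left out in turn it stayed at 0 or 2. The number gained with Pio was 0 under all 70 alternatives, those without WT libraries of a fragment estimate under 60 bp included. Since the main count of 0 was near the background of all genes, nothing is concluded from this. With -log10 q of at least 5 the mean exonic share was higher in each KO group, at 75.3% in KO Control, 79.1% in KO Pio, 82.0% in KO HFD and 88.1% in KO HFD-Pio. In WT Control it was 62.5% under that cutoff, ran from 0 to 60.9% with single livers left out and rested on replicate 5. WT Pio had no peak left under it.

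Of all genes, 12 were called in KO Pio against KO Control, with 0 when only exonic summits were used, 3 with pileup per megatag, and 0 to 18 with single livers left out (0 without KO Control replicate 1 or 4 or KO Pio replicate 1, and 1 without KO Pio replicate 4). In the other contrasts the range was 0 to 1 (KO HFD-Pio against KO HFD), 0 to 2 (KO HFD against KO Control) and 0 to 0. The replicate block gave 15 called genes in KO Pio against KO Control and 0 in the other 3 contrasts, and 4 of 20 livers correlated best with their own number. Ttr and Apoe were not called under any of the 58 alternatives for each, with a smallest adjusted p of 0.716. What the depth of the KO libraries, 0.628 to 1.06 Mtags, limits was not tested, and they had more peaks (median 22563) than the deeper WT libraries (median 3465.5).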
